A study of Mus musculus with 8 samples.

Results

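Amino acids cross the plasma membrane through proteins of the solute carrier (SLC) families, and 10 of the genes that encode them are described here out of 22173 gene symbols counted in each library. The 10 were listed by name, but with earlier results of these data known: Slc7a5, Slc7a11, Slc3a2, Slc7a1, Slc7a2, Slc7a7, Slc1a4, Slc1a5, Slc38a2 and Slc36a1. The study itself reported amino acid transmembrane transport among the terms raised by G-1 in its IL-4 macrophages. Counts of members are thus a description and no independent result. Slc3a2 encodes the heavy chain CD98 (4F2hc), which carries light chains to the cell surface. Slc7a5 (LAT1, an exchanger of large neutral amino acids such as leucine), Slc7a11 (xCT, which brings in cystine in exchange for glutamate) and Slc7a7 (y+LAT1, which exports arginine and lysine) encode such light chains. Slc7a1 (CAT-1) and Slc7a2 (CAT-2) encode cationic amino acid transporters, Slc1a4 (ASCT1), Slc1a5 (ASCT2) and Slc38a2 (SNAT2) encode sodium-dependent carriers of small neutral amino acids and, for ASCT2 and SNAT2, of glutamine, and Slc36a1 (PAT1) encodes a proton-coupled carrier found largely on lysosomes.

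Amino acid uptake sets what a macrophage can make. Arginine feeds nitric oxide synthase and arginase, cystine is reduced to cysteine for glutathione, and leucine and glutamine act on the mTORC1 kinase. Cells that lack amino acids, or are otherwise stressed, translate the transcription factor ATF4, which binds amino acid response elements and is known to drive several transporter genes, Slc7a11 and Slc3a2 among them.

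Macrophages grown from the bone marrow of wild-type mice for 7 days (BMDMs) were left as M0 macrophages, given 100 ng/ml LPS with 20 ng/ml IFN-γ (M1 macrophages) or given 20 ng/ml IL-4 (M2 macrophages), each without or with 10 μmol/L G-1, an agonist of the estrogen receptor GPER1 dissolved in DMSO, for 48 h. Primary tubular epithelial cells (TECs) of the kidney were kept for 24 h in trans-wells beside M1 macrophages that had or had not been pretreated with G-1, and only the TECs were sequenced. RNA of 3 samples per group was pooled into 1 library, which gives 8 libraries and no replicate check in any pair. The sources used here give neither the age nor the sex of the mice that gave the macrophages. The study numbered its sequencing by pair (M0, M1, M2 and TEC), so that a difference between M1 or M2 and M0 libraries cannot be told apart from one between these sequencing sets.

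The libraries held 35027179 to 40671596 counts. All 20 macrophage markers had at least 20 counts in the M0, M0+G-1, M1, M2 and M2+G-1 libraries and 19 did in M1+G-1, and the list summed to 18174 to 65665 in CPM, which are counts scaled to the same total in each library. The summed macrophage markers were lower with G-1 in each macrophage pair, by the values 55461 and 18376 CPM in M0, 25386 and 18174 in M1, and 65665 and 32884 in M2, and their part in the results below was not tested. Single markers differed. Of the 20, 12 were at least 2-fold lower and 0 higher in the M0 pair, 6 and 1 in the M1 pair, and 10 and 0 in the M2 pair. Over all genes 12.6%, 12.1% and 7.78% were lower and 12.2%, 9.44% and 5.95% higher in these pairs. The higher marker in the M1 pair was Cd68, with 14338 and 73489 counts (5.74-fold). Tubular markers reached 20 counts in 0 of 12 cases in every macrophage library and in 12 of 12 in both TEC libraries. In bulk RNA, fewer cells of a type and less RNA per cell cannot be told apart. Nos2, which LPS and IFN-γ induce, had 44992 counts in M1 and 2 in M0. Of 4 genes that IL-4 is known to induce in mouse macrophages, only Mrc1 was higher in M2 with at least 20 counts. By PCR the study reported higher Mrc1, Retnla, Il10 and Tgfb1 mRNA after IL-4. Retnla had 0 counts in all 8 libraries, Arg1 had 1 count in M0 and 7 in M2, and Chil3 had 68 in M0 and 9 in M2, while Mrc1 had 83675 in M0 and 188110 in M2. These genes were chosen after their values were seen, and "M2" below names the label. Gper1 had between 0 and 2 counts in each macrophage library and 712 and 585 in the TEC libraries. In the M1 pair and the TEC pair the fold with G-1 followed transcript length, with a Spearman's rho across genes of -0.57 and -0.60, against 0.13 in the M0 pair and 0.02 in the M2 pair. Beside several results in these pairs, the value after the running median over length was subtracted is also given.

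The promoters of the members are shown first because several members were higher together with G-1 in the M0 and M2 pairs. RefSeq promoters on GRCm38.p6, 250 bases before to 50 after a start, were at hand for 7 of the 10 genes and counted 12, since some genes have several starts. The core of the amino acid response element bound by ATF4, TGATGNAA, searched on both strands, stood in 4 of these 12 and in 3.97% of the 32851 mouse promoters of this length that were searched. The 4 belong to Slc7a11, Slc1a4 and Slc7a7, and the last gene has 2 of them. These 2 windows overlap and hold the same TGATGCAA, so this site is counted in both. The 12 windows come from 7 genes and are not independent, and a difference from the share over the promoters searched was not tested. Promoters of 1 chromosome, which holds no member, were left out of the search. In the sequences, written 5′ to 3′ along the gene's strand, capitals mark each match. The first has 2 matches, the second 1 and the third 2, and the fourth, of the heavy chain gene Slc3a2, is shown as one without a match.
Slc7a11, minus strand, chr3:50443564-50443863: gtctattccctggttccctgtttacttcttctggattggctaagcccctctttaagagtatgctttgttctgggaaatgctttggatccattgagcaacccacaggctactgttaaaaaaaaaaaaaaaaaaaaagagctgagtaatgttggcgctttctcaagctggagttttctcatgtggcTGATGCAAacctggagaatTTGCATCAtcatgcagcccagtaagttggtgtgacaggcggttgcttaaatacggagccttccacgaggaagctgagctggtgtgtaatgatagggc
Slc1a4, minus strand, chr11:20332664-20332963: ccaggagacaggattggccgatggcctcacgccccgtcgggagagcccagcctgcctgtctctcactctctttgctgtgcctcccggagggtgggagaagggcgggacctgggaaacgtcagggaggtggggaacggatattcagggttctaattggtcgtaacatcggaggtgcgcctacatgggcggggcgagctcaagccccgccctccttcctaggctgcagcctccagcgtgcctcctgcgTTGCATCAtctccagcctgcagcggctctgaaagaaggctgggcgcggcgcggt
Slc7a7, minus strand, chr14:54417895-54418194: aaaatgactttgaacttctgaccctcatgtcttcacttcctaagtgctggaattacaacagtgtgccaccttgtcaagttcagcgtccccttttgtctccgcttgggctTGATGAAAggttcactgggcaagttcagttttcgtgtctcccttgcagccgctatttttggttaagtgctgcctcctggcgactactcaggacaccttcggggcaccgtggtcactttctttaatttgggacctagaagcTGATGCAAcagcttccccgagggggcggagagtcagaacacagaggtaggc
Slc3a2, minus strand, chr19:8713848-8714147: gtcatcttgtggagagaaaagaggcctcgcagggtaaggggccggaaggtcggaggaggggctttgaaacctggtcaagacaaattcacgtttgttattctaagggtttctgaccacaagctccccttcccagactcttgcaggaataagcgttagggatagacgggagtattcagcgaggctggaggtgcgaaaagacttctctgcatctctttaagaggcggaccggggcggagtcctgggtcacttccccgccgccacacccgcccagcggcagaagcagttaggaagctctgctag

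In the Slc7a11 promoter the matches face each other, from base -66 to -59 on the gene's strand and from -47 to -40 on the other strand, counted so that the first transcribed base is 1. In Slc1a4 the match spans the start, from -4 to 4, on the other strand. Slc7a7, which holds the same letters, was lower with G-1 in the M0 and M2 pairs. A link between matches and folds was not tested. The antioxidant response element core, TGACNNNGC, was found in 3 of the 12 (Slc7a1, Slc36a1 and Slc38a2) against 12.4% of the promoters searched, and the E-box CACGTG in 1 of the 12 (Slc36a1, at 2 places) against 7.15%. The palindromic STAT6 site was found in 0 of the 12 against 6.95%, and the interferon-γ activated site TTCNNNGAA, which this count reads on both strands at the same place, in 2 (Slc7a11 and the second start of Slc7a1) against 8.3%. A match is only a run of letters, and its absence says only that these letters are not in this window.

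The summed level of the 10 genes was 701 CPM in M0, 5392 in M1 and 555 in M2, and with G-1 it was 1148, 3341 and 1151 CPM in the same order. The TEC libraries had 1027 CPM beside untreated and 931 beside pretreated macrophages. Slc3a2 was the most abundant member in M0, M0+G-1, M1+G-1, M2 and M2+G-1 by counts, Slc7a2 led in M1 with 52.9% of all member counts, and Slc38a2 led in both TEC libraries.

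**Figure D1:**
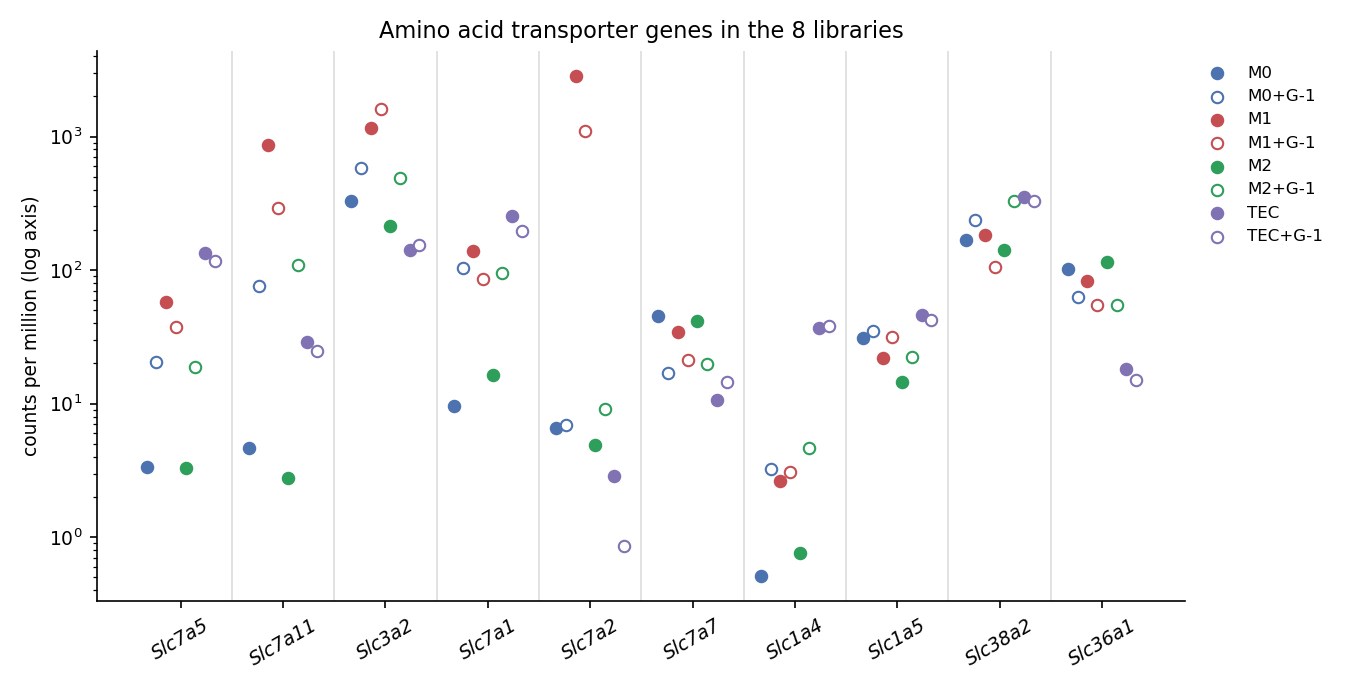
Level of each of the 10 genes in CPM of the library total, on a log axis; filled points are libraries without G-1 and open points those with G-1, 1 pooled library each. Slc7a5, Slc7a11, Slc7a1 and Slc1a4 lie lowest in the M0 and M2 libraries without G-1, and Slc7a2 stands far above its other levels in both M1 libraries.

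Slc3a2, the heavy chain, lies on chromosome 19 of GRCm38.p6 from 8706882 to 8723369. It was at 332 CPM in M0 and 586 in M0+G-1, at 1161 in M1 and 1603 in M1+G-1, at 215 in M2 and 487 in M2+G-1, and at 141 and 155 CPM in TEC and TEC+G-1. The level was thus higher with G-1 in every pair. After scaling by the trimmed mean of M-values (TMM) the fold with G-1 was 1.97 in the M0 pair (95% interval 1.92 to 2.01), 1.59 in the M1 pair (1.57 to 1.61), 2.24 in the M2 pair (2.19 to 2.30) and 1.08 in the TEC pair (1.04 to 1.13). All intervals here are exact binomial intervals of the counts and cover counting error only.

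Slc7a11, the cystine transporter light chain, lies on chromosome 3 from 50364936 to 50499087. It had 162 counts in M0 and 2822 in M0+G-1, 113 in M2 and 4248 in M2+G-1, 33691 in M1 and 11667 in M1+G-1, and 1113 and 901 in TEC and TEC+G-1. It was 18.4-fold higher with G-1 in the M0 pair (15.7 to 21.7) and 39.2-fold higher in the M2 pair (32.5 to 47.7), the highest folds of any member in those pairs. Between the M1 libraries it was 2.58-fold lower (2.52 to 2.63), a log2 fold of -1.37 that became -0.51 once the length trend was removed. In the TECs it was 1.18-fold lower, and the direction turned with the length trend removed, from a log2 fold of -0.23 to 0.25. With G-1, the libraries M0, M2 and M1 stood at 76.3, 110 and 290 CPM, and without it at 4.62, 2.78 and 859 CPM.

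Slc7a5, the leucine transporter light chain, lies on chromosome 8 from 121881146 to 121907686. Its level was 3.34 CPM in M0, 3.29 in M2 and 57.4 in M1, and with G-1 it was 20.5, 18.9 and 37.5 CPM in these states. It was 6.83-fold higher with G-1 in the M0 pair (5.62 to 8.38) and 5.70-fold higher in the M2 pair (4.73 to 6.90). The M1 libraries differed the other way, 1.33-fold lower with G-1 (1.25 to 1.42). TECs had the highest levels, 135 and 117 CPM, and differed by 1.16-fold (1.11 to 1.21).

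Slc7a7, the exporter of cationic amino acids, lies on chromosome 14 from 54369442 to 54420068 and went the other way. It had 1598 counts in M0 and 633 in M0+G-1, and 1688 in M2 and 767 in M2+G-1. It was 2.39-fold lower with G-1 in the M0 pair (2.18 to 2.63) and 2.11-fold lower in the M2 pair (1.94 to 2.30). The M1 pair had 1344 and 852 counts, 1.41-fold lower (1.29 to 1.54), and the TEC pair 412 and 525, 1.34-fold higher (1.17 to 1.53). Its exons share 232 of 3315 bases with Oxa1l, a gene on the opposite strand that the files also count, and since it is not stated whether counting used the strand, its values are uncertain to that extent. Oxa1l had 2913 and 2042 counts in the M0 pair and 2534 and 2407 in the M2 pair, and its part in the Slc7a7 values was not tested.

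The light chains share the heavy chain, and their make-up was compared per kilobase of transcript, with Slc7a6, Slc7a8 and Slc7a10 added. Slc7a8 (LAT2), which is not among the 10, took the largest share in each macrophage library, between 51.6% and 74.3%. Slc7a7 had a smaller share with G-1 in the M0 and M2 pairs, with 35.8% of the light-chain level in M0 and 12.2% in M0+G-1, and 22.0% in M2 and 8.42% in M2+G-1, but not in the M1 pair (5.44% and 5.62%) or the TEC pair (6.52% and 9.42%). Slc7a11 took 0.898% in M0 and 13.5% in M0+G-1, and 0.363% in M2 and 11.5% in M2+G-1. Its share in the M1 pair was 33.7% without and 19.0% with G-1. In TECs Slc7a5 led with 53.2% and 49.5%, and Slc7a10 was at 0 in all libraries. The heavy chain per kilobase was 2.11 times the summed light chains in M0 and 3.39 times in M0+G-1, 1.49 and 3.45 times in the M1 pair, and 0.924 and 1.67 times in the M2 pair. The TEC ratios were 0.697 and 0.815. The shares and ratios were not corrected for the length trend of the M1 and TEC pairs. Slc7a11 has 9223 bases and Slc3a2 2813. In the M1 pair the log2 fold of Slc7a11 went from -1.37 to -0.51 with that trend removed. The part of length in the M1 shares and ratios was not tested. These are ratios of transcripts, and no protein was measured.

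**Figure D2:**
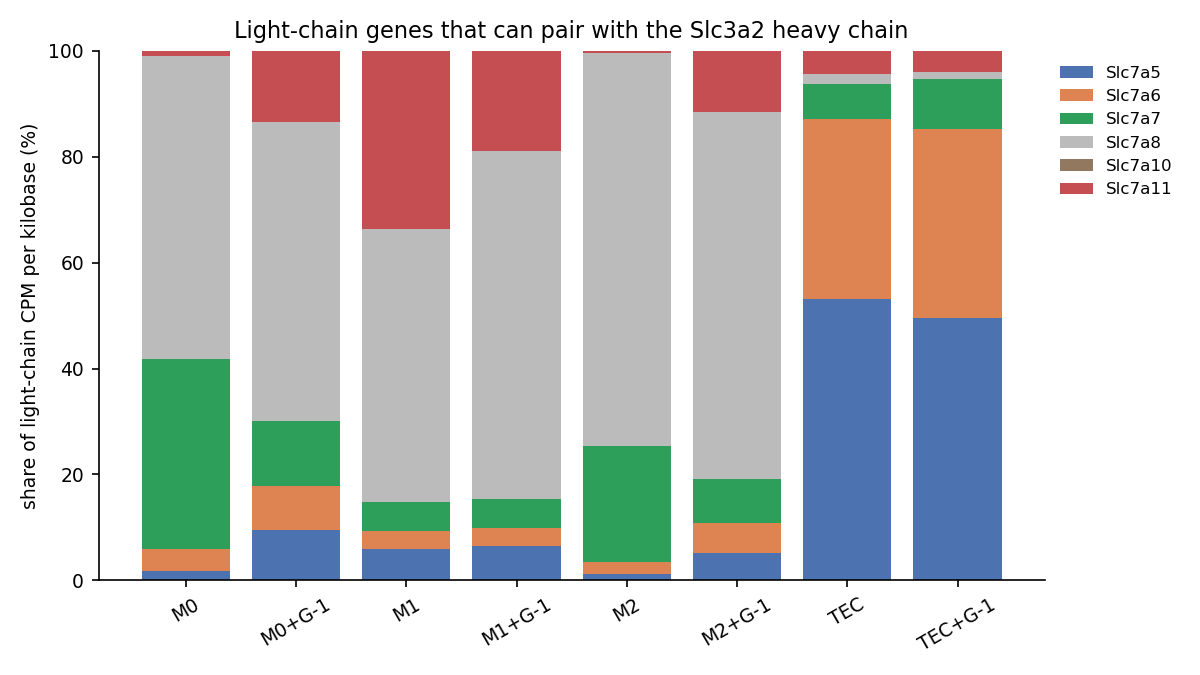
Share of each light-chain gene in the summed light-chain level, in percent of CPM per kilobase, in the 8 libraries. The red Slc7a11 segment is 0.898% in M0, 13.5% in M0+G-1 and 33.7% in M1, and Slc7a5 is the largest segment of the TEC bars, with 53.2% and 49.5%.

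Slc7a1 and Slc7a2 encode carriers that bring arginine and lysine into the cell, and their order changed with the state. Slc7a1, on chromosome 5 from 148327410 to 148399904, was at 9.54 CPM in M0 and 103 in M0+G-1, at 16.5 in M2 and 95.2 in M2+G-1, at 139 in M1 and 85.3 in M1+G-1, and at 256 and 196 in TEC and TEC+G-1. It was 12.1-fold higher with G-1 in the M0 pair (10.8 to 13.5) and 5.73-fold higher in the M2 pair (5.28 to 6.23). It was 1.42-fold lower in the M1 pair (1.36 to 1.48), and the direction turned with the length trend removed, from a log2 fold of -0.50 to 0.25.

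Slc7a2, on chromosome 8 from 40862341 to 40922070, is the carrier that macrophages induce together with nitric oxide synthase. It had 230 and 257 counts in M0 and M0+G-1, 198 and 352 in M2 and M2+G-1, and 111822 and 44611 in M1 and M1+G-1. The M0 pair differed by 1.18-fold (0.983 to 1.41, an interval that holds no change) and the M2 pair by 1.85-fold (1.55 to 2.22). With G-1 it was 2.24-fold lower in the M1 pair (2.21 to 2.26), a log2 fold of -1.16, or -0.40 with the length trend removed. Per kilobase, Slc7a1 made up 61.5% of the sum of both genes in M0, 78.9% in M2, 5.09% in M1 and 7.81% in M1+G-1.

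In TECs Slc7a2 had 110 counts beside untreated and 31 beside pretreated macrophages, 3.38-fold lower (2.25 to 5.21) and the only member past 2-fold there, with a log2 fold of -1.76, or -1.34 without the length trend. Its level was 0.100% of that in M1 and 0.0770% of that in M1+G-1. The 20 macrophage markers stood at a median of 1.22% and 1.02% of those macrophage levels, and they summed to 269 CPM in TEC and 156 in TEC+G-1. The part of macrophage RNA in the Slc7a2 counts of the TECs was not tested.

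Slc1a4 and Slc1a5 encode related carriers of neutral amino acids. Slc1a4, on chromosome 11 from 20302180 to 20332713, was scarce in macrophages, with 18 and 119 counts in M0 and M0+G-1, 31 and 181 in M2 and M2+G-1, and 103 and 123 in M1 and M1+G-1. It was 6.97-fold higher with G-1 in the M0 pair (4.23 to 12.2) and 6.09-fold higher in the M2 pair (4.14 to 9.23), and 1.34-fold higher in the M1 pair (1.02 to 1.76). In TECs it had 1415 and 1385 counts, and the fold of 1.03 had an interval that holds no change (0.954 to 1.11). Slc1a5, on chromosome 7 from 16781334 to 16798274, had 1079 and 1286 counts in M0 and M0+G-1, 861 and 1275 in M1 and M1+G-1, and 593 and 862 in M2 and M2+G-1. It was higher with G-1 in these pairs by 1.26-fold (1.16 to 1.36), 1.66-fold (1.52 to 1.81) and 1.52-fold (1.36 to 1.69), none past 2-fold. Per kilobase Slc1a5 was 85.1 times Slc1a4 in M0, 15.3 times in M0+G-1 and 1.77 times in TEC.

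Slc38a2, whose product takes up glutamine and alanine and is itself known to respond to amino acid shortage, lies on chromosome 15 from 96687392 to 96699728. It was at 167 and 237 CPM in M0 and M0+G-1, at 140 and 330 in M2 and M2+G-1, at 183 and 105 in M1 and M1+G-1, and at 351 and 327 in the TECs. It was 1.58-fold higher in the M0 pair (1.53 to 1.63), 2.33-fold higher in the M2 pair (2.26 to 2.41) and 1.52-fold lower in the M1 pair (1.46 to 1.57). Slc36a1, the lysosomal carrier, on chromosome 11 from 55204322 to 55236330, had 3544 and 2320 counts in M0 and M0+G-1, 4695 and 2115 in M2 and M2+G-1, and 3240 and 2213 in M1 and M1+G-1. It was 1.45-fold lower (1.37 to 1.53), 2.13-fold lower (2.02 to 2.24) and 1.31-fold lower (1.24 to 1.38) in these pairs, the last with a log2 fold of -0.39 that became 0.04 without the length trend.

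Counted over the members, 4 were at least 2-fold higher and 1 lower with G-1 in the M0 pair, where 12.2% of 11252 measured genes were higher and 12.6% lower, and their median log2 fold was 0.82. In the M2 pair 6 were higher and 2 lower, where 5.95% of genes were higher and 7.78% lower, with a median of 1.19. The M1 pair had 0 higher and 2 lower, against 9.44% and 12.1% of genes, with a median of -0.45, or -0.13 and 0 lower without the length trend. The TEC pair had 0 higher and 1 lower, against 1.39% and 2.82%, with a median of -0.17, which turned to 0.017 without the length trend. The median over all measured genes lay between -0.0016 and 0.011 in these 4 pairs.

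**Figure D3:**
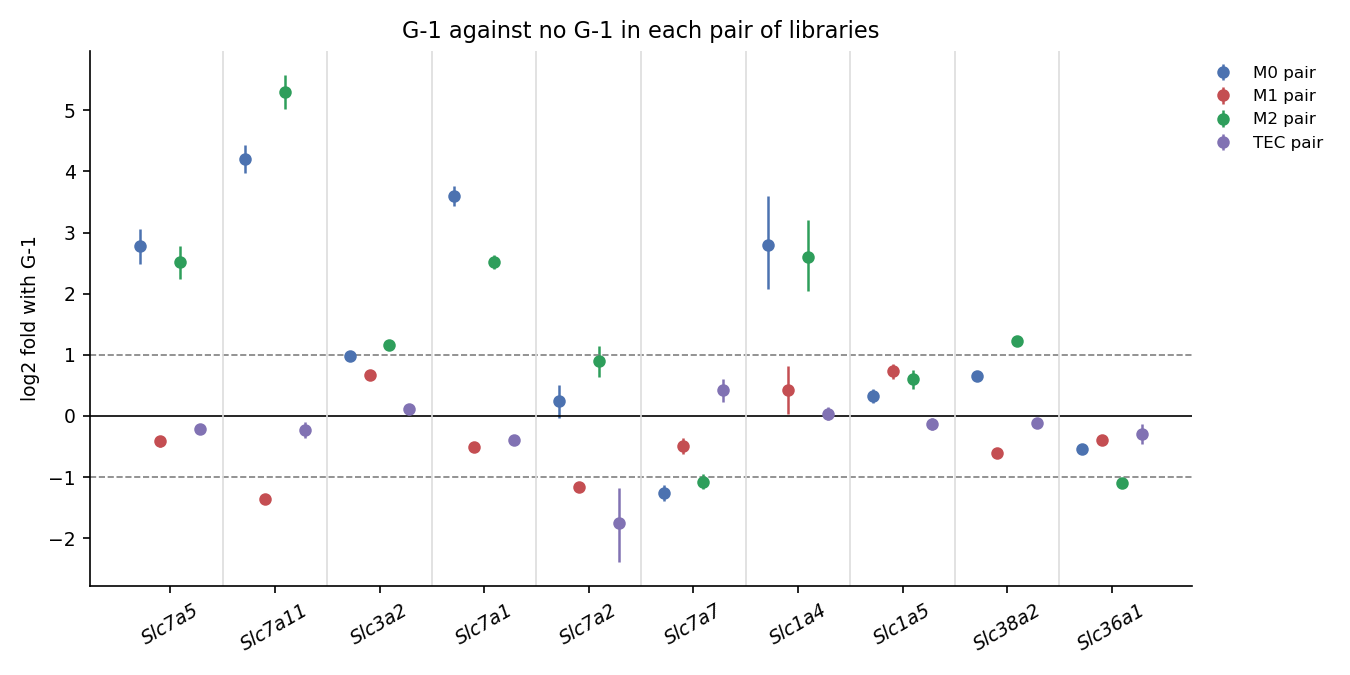
Log2 fold with G-1 of each gene in the M0, M1, M2 and TEC pairs after TMM scaling; bars are exact 95% binomial intervals (counting error only) and dashed lines mark 2-fold. Slc7a11 lies at 4.20 and 5.29 in the M0 and M2 pairs and at -1.37 in the M1 pair.

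**Figure D4:**
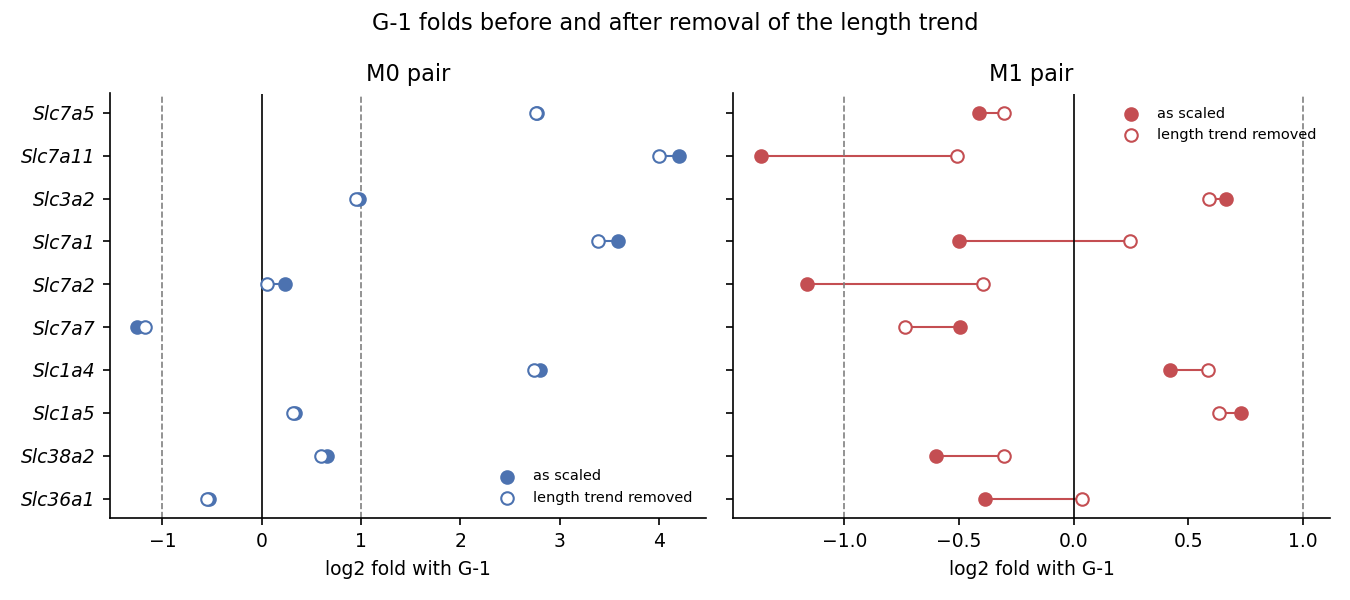
Log2 fold with G-1 in the M0 pair and the M1 pair as scaled (filled) and after subtraction of the running median over transcript length (open); dashed lines mark 2-fold. In the M1 pair Slc7a11 moves from -1.37 to -0.51 and Slc7a2 from -1.16 to -0.40, while Slc7a11 stays above 4 in the M0 pair.

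A shift with G-1 shared by M0, M1 and M2 was tested by edgeR's quasi-likelihood method in the 6 macrophage libraries, in a model that also held the state. The residual then holds how the response differs between states. Of the 11490 genes tested, 0 passed in either direction (0% higher and 0% lower), with 655 higher and 912 lower at an unadjusted p under 0.05 and 320 and 468 of 12580 called by DESeq2 (2.54% and 3.72%). None of the 10 members passed in edgeR. Their smallest adjusted p was 0.228, for Slc7a7 (log2 effect -0.97, SE 0.25), and 4 members had an unadjusted p under 0.05. DESeq2 called 4, Slc3a2 (adjusted p = 0.0176), Slc7a7 (0.0372), Slc7a1 (0.0443) and Slc1a4 (0.0480). Without the M1 libraries, where 1 residual degree of freedom is left, edgeR called 3.64% of genes higher and 4.79% lower, and 5 members: Slc7a11 (log2 effect 4.73, adjusted p = 0.00804), Slc7a5 (2.63, 0.0109), Slc7a1 (3.04, 0.0109), Slc7a7 (-1.18, 0.0257) and Slc1a4 (2.68, 0.0349). That fit leaves out the state in which Slc7a11, Slc7a5 and Slc7a1 were lower with G-1, so its residual lacks this difference. Its calls therefore cannot show a shift shared by M0, M1 and M2.

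M1 macrophages were compared with M0 macrophages without G-1 first. Slc7a2 was 482-fold higher in M1 (423 to 551) and Slc7a11 206-fold higher (177 to 242). Slc7a5 was 19.1-fold higher (15.8 to 23.2), Slc7a1 16.2-fold (14.5 to 18.1), Slc1a4 5.67-fold (3.42 to 9.95) and Slc3a2 3.89-fold (3.81 to 3.97). Slc7a7, Slc1a5, Slc38a2 and Slc36a1 differed by 1.10-fold to 1.26-fold. In all, 6 were at least 2-fold higher and 0 lower, where 16.8% of genes were higher and 17.4% lower, with a median log2 fold of 2.23.

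Between the libraries with G-1 each of these 6 genes had a smaller fold. This comparison also followed transcript length, with a rho of -0.48. Slc7a2 was 185-fold higher in M1+G-1 than in M0+G-1 (163 to 209), Slc7a11 4.40-fold (4.22 to 4.58), Slc3a2 3.16-fold (3.12 to 3.21) and Slc7a5 2.11-fold (1.94 to 2.31). With the length trend removed the folds of Slc7a2 and Slc7a11 were 349 and 8.85. Slc7a1 differed by 1.05-fold (0.999 to 1.10), and with the length trend removed its log2 fold went from -0.06 to 0.83. Slc38a2 was 1.95-fold lower (1.88 to 2.03). The count was 4 higher and 0 lower, where 17.7% of genes were higher and 19.7% lower, with a median log2 fold of 0.33, or 0.66 without the length trend. Whether the M1 folds differ with and without G-1 could not be tested with 1 library each.

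The M1 effect shared with and without G-1 passed the edgeR test for 4.2% of genes higher and 4.59% lower. Slc7a2 passed, with a log2 effect of 8.34 (SE 0.74, adjusted p = 0.0075), as did Slc3a2, with 1.83 (SE 0.35, adjusted p = 0.036). Slc3a2 did not pass without the M2 libraries (adjusted p = 0.0873), where Slc7a5 (0.0393) and Slc7a11 (0.0301) did, among 4.57% of genes higher and 4.12% lower. With all libraries, Slc7a5 had a log2 effect of 2.91 (SE 0.86) and Slc7a11 one of 6.17 (SE 1.93). DESeq2 called 5 of the 10, where it called 9.79% of genes higher and 10.1% lower.

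**Figure D5:**
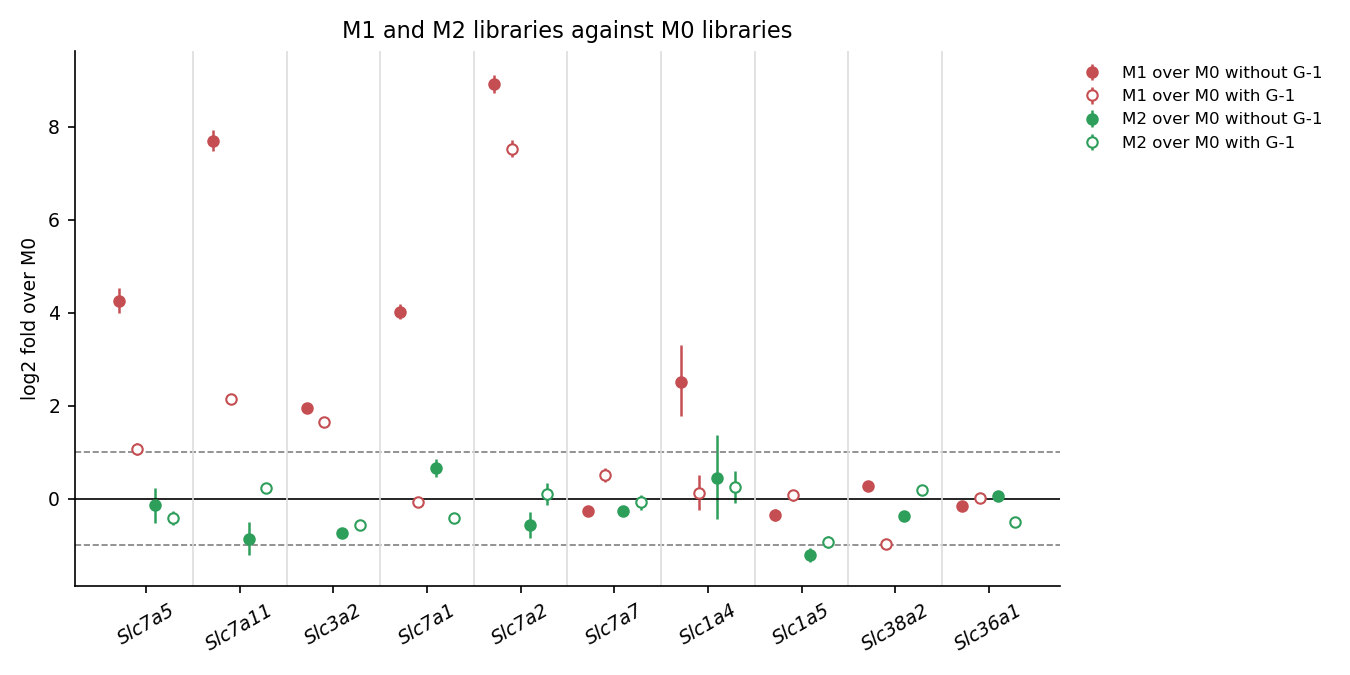
Log2 fold of M1 and M2 libraries over the M0 library of the same G-1 treatment, filled without and open with G-1; bars are exact 95% binomial intervals (counting error only) and dashed lines mark 2-fold. Slc7a2 stands at 8.91 and 7.53 for M1, Slc7a11 at 7.69 without and 2.14 with G-1, and the M2 points lie between -1.20 (Slc1a5) and 0.67 (Slc7a1).

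The M2 library was set against M0 in the same way. Without G-1, 0 members were at least 2-fold higher and 1 lower, where 7.7% of genes were higher and 6.64% lower, and the lower one was Slc1a5, with 1079 counts in M0 and 593 in M2 (2.30-fold, 2.08 to 2.54). With G-1 0 were higher and 0 lower, against 6.7% and 6.11%, and Slc1a5 was 1.91-fold lower (1.75 to 2.08). The medians were -0.31 and -0.24. Slc7a5 in M0 and M2 could not be told apart by its counts (1.10-fold, 0.852 to 1.42), nor could Slc1a4 (1.36-fold, 0.740 to 2.59). In the edgeR test of the M2 effect, 0% of genes were higher and 0% lower, with 314 and 471 at an unadjusted p under 0.05 and 67 and 106 called by DESeq2 (0.545% and 0.863%). No member passed. Slc1a5 alone had an unadjusted p under 0.05 (log2 effect -1.08, SE 0.27, adjusted p = 0.571), and DESeq2 called 0 of the 10. The comparisons of M1 and of M2 with M0 share the M0 libraries.

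Genes that act beside these carriers were read from lists of known function. Over all measured genes, 12.2% were at least 2-fold higher with G-1 and 12.6% lower in the M0 pair. The shares were 5.95% and 7.78% in the M2 pair and 9.44% and 12.1% in the M1 pair. Of 9 other plasma membrane carriers measured in the M0 pair, 5 were at least 2-fold higher with G-1 and 0 lower (median log2 fold 1.03). They include Slc7a6 (y+LAT2, a light chain; 315 and 708 counts, 2.37-fold) and Slc6a12 (a betaine and GABA carrier; 24 and 141, 6.20-fold). In the M2 pair 3 of 9 were higher and 0 lower, with Slc7a6 at 287 and 830 counts (3.02-fold). Of 11 in the M1 pair, 0 were higher and 2 lower, among them Slc43a2 (LAT4, a carrier of branched-chain amino acids), with 6710 and 2511 counts and a log2 fold of -1.25, or -0.52 without the length trend. Among 11 lysosomal and intracellular carriers, Slc15a3, an exporter of histidine and small peptides from lysosomes, was the only one past 2-fold in the M0 pair (7226 and 38850 counts, 5.67-fold higher) and in the M2 pair (4380 and 26808, 6.38-fold higher).

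The regulators and enzymes of the amino acid response were described in the same way and are read against the same shares of all genes. Of 18 regulators, 5 were at least 2-fold higher and 0 lower in the M0 pair, 6 and 0 in the M2 pair, and 0 and 1 in the M1 pair. Atf4 itself had 2761 and 8005 counts in M0 and M0+G-1, 4324 and 13687 in M2 and M2+G-1, and 15654 and 20792 in M1 and M1+G-1. Its log2 fold of 0.57 in the M1 pair became 0.096 without the length trend. Trib3, a pseudokinase that ATF4 induces, had 40 and 868 counts in the M0 pair (22.9-fold higher, 16.7 to 32.3) and 71 and 1751 in the M2 pair (25.7-fold higher, 20.3 to 33.1). Of the enzymes known as ATF4 targets, 6 of 9 measured were higher and 0 lower in the M0 pair, 8 of 9 and 0 in the M2 pair, and 2 and 2 of 11 in the M1 pair. Asns, which makes asparagine, was 11.0-fold higher in both the M0 and the M2 pair and 2.22-fold higher in the M1 pair, where its log2 fold of 1.15 became 0.87, under 2-fold, without the length trend. Of 13 aminoacyl tRNA synthetases, 8 were higher in the M0 pair, 5 in the M2 pair and 0 in the M1 pair, and 0 were lower in all 3, with Aars (alanine) 3.15-fold higher in the M0 pair. In the TEC pair 0 of 12 enzymes and 0 of 13 synthetases passed 2-fold in either direction, where 1.39% of genes were higher and 2.82% lower.

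Genes that use what the members bring in were counted as well. Of all measured genes, 12.2% were higher and 12.6% lower in the M0 pair, and 9.44% and 12.1% in the M1 pair. Of 11 genes of cystine use and glutathione synthesis in the M0 pair, 2 were higher and 2 lower. The higher ones were Srxn1 (sulfiredoxin, 6.13-fold) and Txnrd1 (thioredoxin reductase, 3.25-fold), both known targets of the antioxidant response. The lower ones were Ggt5, with 664 and 29 counts (21.7-fold, the largest change in this list), and Oplah, with 463 and 173 (2.54-fold). Of 10 in the M1 pair, 1 was higher and 1 lower. The higher one was Gpx4 (2.89-fold, log2 1.53, or 0.64 without the length trend). The lower one was Gclc, which makes the first step of glutathione synthesis, with 1550 and 643 counts (2.15-fold lower, log2 -1.11, or -0.99 without the length trend). Of the arginine enzymes 3 of 9 were higher and 1 lower in the M0 pair, with Ass1, which remakes arginine from citrulline, at 48 and 576 counts (12.7-fold higher). The M1 pair had 0 higher and 3 lower of 11. These were Arg1 (2569 and 232 counts, 9.88-fold), Nos2 (44992 and 9422, 4.26-fold) and Gatm (1273 and 552, 2.06-fold). Without the length trend their log2 folds were -3.91, -1.87 and -1.20. Of 23 mTORC1 sensing genes 2 were higher and 2 lower in the M0 pair, no larger shares than over all genes (12.2% and 12.6%). The lower ones include Sesn1, a leucine-sensing inhibitor of mTORC1, which had 10621 and 1507 counts in the M0 pair (6.68-fold lower) and 11829 and 1880 in the M2 pair (6.03-fold lower).

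The pattern over the 8 libraries was compared across the 12212 genes with at least 100 counts in some library, by Pearson's r of log2(CPM + 1), as a description. Of the 8 points, 6 are macrophage libraries, and pairs share their sequencing set. Slc7a11 was most like BC048403 (0.974), Plpp3 (0.964) and Trib3 (0.959). Slc7a2 was most like Acsl1 (0.991), and Slc36a1 most like Tbc1d2b (0.995). Among the members themselves, Slc7a5 and Slc7a1 were the most alike (0.953), and Slc1a4 and Slc36a1 were the most opposed (-0.987).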

How the data were processed

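RNA of 8 groups, 3 samples pooled in each, was sequenced with paired ends by the authors, who deposited raw counts of reads for each gene symbol. In the submitters' processing notes mm10 and DESeq2 are named. The aligner, counter and strand setting were not given in the sources used here. The members and lists were chosen with earlier results of these data known. Named genes were the 10 members and, per list, up to 4 with the largest folds and a count of 100 or more in either library, with further genes named after their values were seen.

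Folds were scaled by TMM within a pair (edgeR 4.0.16, R 4.3.3) for genes that reached 20 counts in either library, called at 2-fold, with a floor of 3 counts for a 0 and exact 95% binomial intervals (scipy 1.17.1). Pairs have no p-value. Shared effects were tested with edgeR's quasi-likelihood test over 6 libraries, after filterByExpr and with Benjamini-Hochberg adjustment, and DESeq2 1.42.0 was the alternative. Libraries served as blocks only through state or G-1, so 2 residual degrees of freedom are left per gene. The quasi-likelihood test adds to them information shared across genes. Each SE is the size of the log2 effect divided by the square root of the F statistic. Lengths, for 96.9% of symbols, are those of GENCODE M21, and the length trend is a running median over 501 genes. Scripts were tested on simulated data. The alternatives were DESeq2 size factors, library totals, other count filters, a prior of 5 counts, interval bounds, length, and leaving out states.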

Additional observations from a re-analysis of the deposited data

Results flagged for a closer look

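Slc7a11 was the only member at least 2-fold higher with G-1 in some pairs and at least 2-fold lower in another: the log2 fold was 4.20 in the M0 pair, 5.29 in the M2 pair and -1.37 in the M1 pair. With 1 pooled library per group the difference between these pairs was not tested. Without the length trend the M1 value was -0.51, which is no longer past 2-fold.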

How the results depend on the processing

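Each member fold was recomputed under the alternatives, 80 folds in all. With library totals 41 of the 80 folds left the binomial interval of the main fold, and the largest shift was 0.29 (log2). Without the length trend 27 of the 80 did so, and the largest shift was 1.01. Single folds thus moved more often than the counts past 2-fold that follow. DESeq2 size factors, the count filters and a prior of 5 counts changed no count of members past 2-fold. Without the length trend the 2 members lower in the M1 pair became 0, at the near bound of the interval the 2 lower in the M2 pair became 1, and with library totals 1 member, against 0, was lower in M1+G-1 over M0+G-1. In that last comparison Slc7a5, at 2.11-fold higher, fell under 2-fold at its near bound (1.94) and also with library totals, so fewer members were counted as higher. Library totals moved the median of all genes by up to 0.32 (log2, M2 over M0 with G-1), and folds are given relative to that median.

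The shared tests, which called 0 genes for G-1, called with library totals 2 higher and 5 lower, with no filter 12 and 13, with DESeq2 320 and 468, without the M0 libraries 14 and 23, without the M1 libraries 422 and 556, and without the M2 libraries 14 and 33. The M1 effect called 483 higher and 527 lower, with DESeq2 1231 and 1267, and with library totals 801 lower. The M2 effect called 0, with DESeq2 67 and 106, and without the M1 libraries 14 and 18. The cause was not tested.

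Log2 effects that changed sign belong to members not called. The G-1 effect on Slc7a2 was 0.55 without the M1 libraries, and the M2 effect on Slc7a1 was 0.10. With library totals the M1 effect on Slc7a7 was -0.051, and the M2 effects were 0.21 on Slc7a11, 0.17 on Slc7a1, 0.065 on Slc7a2, 0.027 on Slc7a7, 0.18 on Slc38a2 and 0.0032 on Slc36a1. Of the member calls of the M1 effect, Slc3a2 was lost without the M2 libraries (adjusted p = 0.0873, edgeR). No paired analysis was possible because the labels number no replicates that could pair libraries beyond the state and G-1 terms already in the shared tests. Counts limit Slc1a4 most, with 18 in M0.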
